A study of Mus musculus with 16 samples.

Results

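Hepatic inflammatory cells of mice with concanavalin A hepatitis were compared with and without a late dose of adipose tissue-derived stem cells. The comparison holds 4 of the 16 samples of the series, chosen by their treatment labels. Samples 987 and 989 came from mice that were given 300 µg of concanavalin A and, 3 h later, 100000 stem cells through the tail vein. Samples 983 and 985 came from mice given 300 µg of concanavalin A alone. Both groups were collected 5 h after concanavalin A, from female C57Bl/6 mice, so that the stem cells had 2 h to act. The stem cells had been grown in culture from inguinal fat of the same strain. Livers of the same schedule, 3 with stem cells at 3 h (mice 1, 2 and 3) and 3 with concanavalin A alone (mice 4, 5 and 6), served for comparison. Every group carried concanavalin A, and the labels do not state how the inflammatory cells were isolated or whether a sample was 1 mouse or a pool. The p-values therefore measure the spread between these samples, which may be technical.

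Concanavalin A is a plant lectin that cross-links T cell surface proteins and activates T cells and NKT cells in the liver. The activated cells release interferon-gamma, tumour necrosis factor and interleukins, which act on macrophages, endothelium and hepatocytes, and the tissue is injured within hours. Stromal stem cells from fat are known to dampen T cell activation through soluble mediators and cell contact.

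Every value below is a log2 level, the array signal relative to the 75th percentile of its own array, and each change is the mean of the stem cell samples minus the mean of the samples without, on that log2 scale, with its standard error from the limma fit. Values are given in the order 987 and 989, then 983 and 985. On these 4 arrays 58.8% to 62.4% of the spots lay well above background. The group without stem cells was the less uniform one. Across 14244 genes, the levels of samples 987 and 989 correlated at 0.973 and those of 983 and 985 at 0.954 (Pearson, across genes, which are not independent replicates). Sample 985 was more like the stem cell sample 989, at 0.967, than like 983, and 983 was the farthest from both stem cell samples (0.915 and 0.910). The SD of the gene differences was 0.625 between the stem cell samples and 0.885 between the samples without. The source label of 983 and 985 also mentions the stem cell treatment, whereas the treatment and description fields name concanavalin A alone. The samples are used here by their treatment labels. The samples without stem cells lay at array positions 1 and 2 and those with stem cells at 3 and 4 of 1 slide, so position and treatment cannot be told apart.

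The cells expressed the pan-leukocyte gene Ptprc (CD45) at 5.92 and 5.94 with stem cells, compared with 6.58 and 6.21 without. Markers of T cells, NK cells, B cells, macrophages, dendritic cells and neutrophils were nearly all well above background on each array. Hepatocyte RNA was present as well. The summed linear level of 18 hepatocyte markers was 202 and 488 with stem cells, compared with 113 and 262 without, while the 6 livers at 5 h had 5419 to 7985. Markers of mesenchymal cells, which the injected cells could also carry, were mixed in level. Pdgfra, Des and Lrat, of stromal and stellate cells, were not well above background on any of the 4 arrays, while the contractile genes Acta2 and Tagln and the adhesion gene Vcam1 were so on all 4. The collagen gene Col1a1 overlapped, at -4.57 and -4.79 with stem cells, compared with -5.57 and -4.56 without, whereas Col3a1 had -2.58 and -3.26, against -3.79 and -3.43. The summed level of 18 such markers was 76.8 and 96.4 with stem cells, compared with 65.9 and 86.5 without, and overlapped. The brightest were Acta2, at 5.09 and 5.65 with stem cells, compared with 4.73 and 5.11 without, and Thy1. For Thy1 the levels were 5.02 and 5.26 with stem cells, compared with 4.97 and 5.42 without. Since Thy1 is also a T cell antigen, the sum does not measure mesenchymal cells alone. In such mixed RNA, fewer cells of a type and less RNA per cell cannot be told apart.

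Of 14244 genes, 2 fell and 0 rose at an adjusted p under 0.05 (limma), which is 0.0140% of the genes. Both are products of activated T cells. Il3, a growth factor of blood cell precursors, mast cells and basophils, had -6.33 and -7.04 with stem cells, where it was not well above background, against 0.34 and 0.44 without. The treated samples were thus lower for Il3 by at least 31.96-fold (adjusted p = 0.0201). Ccl1, a chemokine that attracts cells through the receptor CCR8, had -1.53 and -0.78 with stem cells, compared with 4.71 and 4.74 without. Ccl1 fell by 5.88 ± 0.40, or 59.0-fold (adjusted p = 0.0326). For both genes the samples of each group lay close together and far from the other group. The probes lie on chromosome 11 in build mm8, at 54108918 to 54108977 for Il3 and at 81993029 to 81993088 for Ccl1. The next smallest adjusted p over all genes was 0.0711.

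The calls depended on which sample was left out and on the estimate of the spread. At an unadjusted p under 0.05, 1153 genes lay higher (8.09%) and 1407 lower (9.88%). Genes whose groups did not overlap made up 27.7% on the higher side and 24.9% on the lower side. No gene passed without sample 987, without 989 or without 983, and 2157 genes passed without 985, in which case the single sample 983 is taken to vary like the stem cell samples. When all 16 arrays shared 1 estimate of the spread, 2214 genes passed in the inflammatory cells (13.6%), 879 higher (5.39%) and 1335 lower (8.19%). That estimate takes the cells to vary like the livers. The counts of gene groups below are given as genes whose groups do not overlap, as genes at an unadjusted p under 0.05 and, where it adds to them, as genes passing with the 16-array estimate, each to be read against these percentages. The median change of all genes was 0.09.

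**Figure D1:**
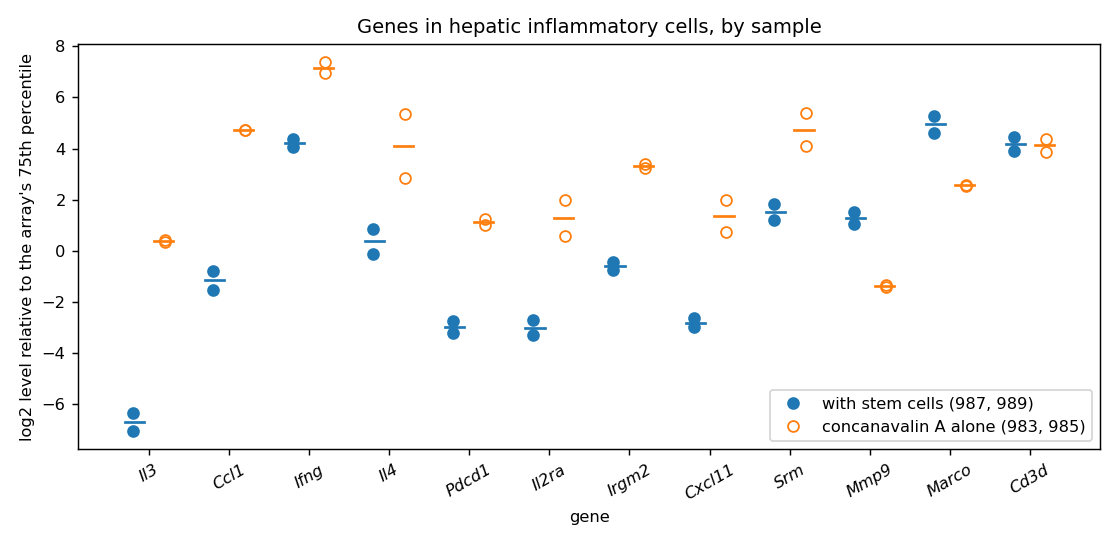
Log2 level (vertical axis, relative to the array's 75th percentile) of 12 genes in each sample of hepatic inflammatory cells, with stem cells (filled circles, 987 and 989) left of concanavalin A alone (open circles, 983 and 985) and a bar at each mean. Il3 and Ccl1 are the genes that passed the test, and the T cell gene Cd3d has overlapping groups.

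The upstream sequence of both called genes, and of Irgm2 and Ifng from the interferon axis described below, is shown for reference. Each is the stretch of 250 bases before the transcription start in RefSeq's annotation of GRCm38.p6, on the gene's own strand, with matches to the searched motifs in capitals. The Il3 stretch is chr11:54267280-54267529 (minus strand), that of Ccl1 chr11:82179813-82180062 (minus strand), that of Irgm2 chr11:58214727-58214976 (plus strand) and that of Ifng chr10:118440796-118441045 (plus strand).
Il3: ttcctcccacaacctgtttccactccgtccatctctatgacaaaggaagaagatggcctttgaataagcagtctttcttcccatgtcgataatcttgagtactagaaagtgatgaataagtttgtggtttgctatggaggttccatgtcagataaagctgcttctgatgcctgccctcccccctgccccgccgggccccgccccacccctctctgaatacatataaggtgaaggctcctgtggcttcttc
Ccl1: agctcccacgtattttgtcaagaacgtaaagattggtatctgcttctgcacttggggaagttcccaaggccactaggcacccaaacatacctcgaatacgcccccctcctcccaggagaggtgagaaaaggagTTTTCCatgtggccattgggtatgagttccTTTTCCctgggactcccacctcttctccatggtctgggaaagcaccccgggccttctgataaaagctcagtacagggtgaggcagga
Irgm2: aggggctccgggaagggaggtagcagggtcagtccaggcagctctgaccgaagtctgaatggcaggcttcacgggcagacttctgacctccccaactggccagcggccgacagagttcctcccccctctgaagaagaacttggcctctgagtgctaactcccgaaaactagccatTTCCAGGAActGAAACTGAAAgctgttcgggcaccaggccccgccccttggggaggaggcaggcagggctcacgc
Ifng: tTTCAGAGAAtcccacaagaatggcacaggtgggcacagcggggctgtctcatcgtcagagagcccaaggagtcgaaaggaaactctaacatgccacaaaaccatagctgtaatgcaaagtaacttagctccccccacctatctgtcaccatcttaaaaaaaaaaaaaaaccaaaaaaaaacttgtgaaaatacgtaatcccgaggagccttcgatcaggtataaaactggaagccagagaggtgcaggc
The motifs searched, on both strands, were GGAAAA for NFAT, TGANTCA for AP-1, TTCNNNGAA for the gamma-activated site, GAAA, any 2 bases and GAAA for the interferon-stimulated response element, and GGG, any 2 bases and TTTCC for kappa B. Irgm2 held a gamma-activated site starting 75 bases and an interferon-stimulated element starting 64 bases before its start. Ccl1 held NFAT letters starting 117 and 87 bases before its start, Ifng a gamma-activated site at 249 bases, and Il3 none of these letters in this window. In windows of 300 bases, which add the 50 bases after the start, the interferon-stimulated element occurred in 10 of 25 windows (40.0%) of 22 interferon-gamma response genes that had one, against 3.44% of 32851 windows of all genes, and the gamma-activated site in 9 (36.0%), against 8.30%. Kappa B letters occurred in 5 of 17 windows (29.4%) of chemokine genes, against 1.63%, and NFAT letters in 7 of 19 windows (36.8%) of T cell cytokine genes, against 23.4%. Those 19 windows also held kappa B letters in 3 (15.8%) and the gamma-activated site in 4 (21.1%). Of 17 windows of ribosome biogenesis genes, 4 held NFAT letters (23.5%), 2 the gamma-activated site (11.8%) and 1 kappa B letters (5.88%). A match describes letters and not a bound site.

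The cytokines that T cells make on activation lay lower with stem cells almost throughout. Of 19 measured cytokines 16 lay lower and 1 higher without overlap of the groups, 13 were lower at an unadjusted p under 0.05, and the median change was -1.86, against 0.09 for all genes. With normexp background correction, which raises dim signals, that median was -0.66. Ifng, the cytokine that drives this hepatitis, had 4.05 and 4.37 with stem cells, compared with 6.96 and 7.37 without, a change of -2.95 ± 0.37 (adjusted p = 0.091). Il4, made by NKT and type 2 helper cells, had -0.10 and 0.84 with stem cells, compared with 2.86 and 5.34 without. The 2 samples without stem cells were far apart for Il4, yet both lay above both treated samples. Il21, a cytokine of follicular helper cells, had -6.06 and -4.25 with stem cells, compared with -1.12 and -2.49 without. Csf2, the growth factor GM-CSF, had -0.71 and -1.21 with stem cells, compared with 1.45 and 2.99 without. The type 17 cytokine gene Il17a had -4.68 and -4.06 with stem cells, compared with -2.40 and -0.43 without, and Il17f and Il22 lay lower too, at -1.86 ± 0.52 and -1.49 ± 0.43, though Il22 had 0.19 with normexp background correction. The cytokines of each helper type, 1, 2 and 17, were thus on the same side. Tgfb1, a suppressive cytokine, had 2.32 and 2.49 with stem cells, compared with 2.36 and 2.65 without, and the groups overlapped. Il10 lay lower, at -1.54 and -3.01 with stem cells, compared with -1.21 and -1.47 without (adjusted p = 0.401). Lymphotoxin beta, Ltb, was the 1 cytokine higher with stem cells, at 5.47 and 6.17, against 4.53 and 5.10 without.

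Receptors that appear on activated T cells lay lower as well. Of 16 measured receptors 14 lay lower and 0 higher without overlap, 10 were lower at an unadjusted p under 0.05 and 6 passed with the 16-array estimate, with a median change of -1.19. Pdcd1, the checkpoint receptor PD-1, had -3.23 and -2.74 with stem cells, compared with 1.26 and 0.99 without, a change of -4.11 ± 0.37 (adjusted p = 0.0711). Il2ra, the high-affinity chain of the interleukin 2 receptor, had -3.27 and -2.72 with stem cells, compared with 1.97 and 0.57 without. The costimulatory receptor gene Tnfrsf9 (4-1BB) had -2.44 and -1.75 with stem cells, compared with 1.73 and 0.36 without. All 3 were separated by over 2 log2 units between the nearest samples of the groups. The PD-1 ligand genes were lower as well, Pdcd1lg2 at -2.13 ± 0.35 and Cd274 at -1.32 ± 0.37. The early activation marker Cd69 had 4.67 and 4.87 with stem cells, compared with 6.00 and 5.94 without.

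Constitutive T cell genes lay closer to the median of all genes. The signalling chain gene Cd3d had 3.89 and 4.45 with stem cells, compared with 3.88 and 4.39 without, a change of 0.03 ± 0.40, and the kinase gene Lck had 3.48 and 3.87, against 3.51 and 3.92. Thy1, the pan-T cell antigen, also overlapped. Of 17 measured genes of the receptor complex and lineage 10 overlapped, 7 lay lower and 0 higher, with a median change of -0.34. The kinase gene Zap70 was the lowest, at 2.17 and 2.67 with stem cells, compared with 3.72 and 3.74 without, followed by Cd8a at -1.08 ± 0.45. A brighter Cd8a probe, at 1.35 and 2.39 with stem cells, had no value in 983 and 985 and was not in the fit. Without sample 987 the median of the list was 0.06 and without 989 it was -0.69. The summed level of the 16 such markers with a value on each array was 108 and 165 with stem cells, compared with 146 and 167 without, so that the groups overlapped.

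Transcription factors of activation were split. Of 25 measured, 8 lay lower and 1 higher without overlap, and the median change was -0.23, or -0.12 without sample 989 and -0.36 without 983. Batf, an AP-1 family factor of effector T cells, had 1.90 and 2.82 with stem cells, compared with 5.36 and 5.10 without (change -2.87 ± 0.43). Tbx21 (T-bet), the type 1 master regulator, had 2.25 and 1.36 with stem cells, compared with 5.18 and 3.65 without. Prdm1 and Myc followed at -1.57 ± 0.34 and -1.41 ± 0.38. In contrast, the receptor-proximal factors Nr4a1, Junb, Nfatc1 and Irf4 overlapped between the groups. Foxp3, the factor of regulatory T cells, had -3.63 and -2.26 with stem cells, compared with -3.51 and -3.54 without. Genes of resting and recirculating T cells leaned upward, with 7 of 14 higher and 3 lower without overlap and a median of 0.63 (0.29 without sample 983), among them the lymph node exit receptor gene S1pr1 (1.46 ± 0.51) and the factor gene Tcf7 (1.19 ± 0.38). The immediate early genes, which respond within minutes, had a median of 0.03, whose sign changed without sample 987 (-0.09) and without 983 (-0.08). Fosb was highest, at 2.30 and 1.18 with stem cells, compared with -0.93 and 0.53 without, and Fos followed at 1.29 ± 0.42, while Egr2 lay at -0.95 ± 0.37.

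Genes induced by interferon-gamma lay lower as well as Ifng itself. Of 31 measured, 24 lay lower and 0 higher without overlap, 21 were lower at an unadjusted p under 0.05, and the median change was -1.72. Irgm2, a GTPase of cell-autonomous defence, had -0.76 and -0.45 with stem cells, compared with 3.41 and 3.23 without (change -3.92 ± 0.35, adjusted p = 0.0711). Its relative Iigp1 had -0.08 and -0.07 with stem cells, compared with 5.01 and 2.80 without. The guanylate-binding protein gene Gbp6 had -3.29 and -2.97 with stem cells, compared with 1.56 and -0.65 without. For these genes the treated samples were nearly equal, and sample 983 exceeded 985. Over the list, 983 exceeded 985 by a median of 0.54. The median change was -2.28 without sample 985 and -1.36 without 983. The feedback inhibitor Socs1 had 1.93 and 3.63 with stem cells, compared with 5.51 and 5.32 without. The regulator gene Irf1 lay at -0.51 ± 0.34. With the spread estimated over livers too, 5 of these 31 genes passed.

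Related interferon programmes lay closer to the median of all genes. Among type I interferon genes the median was -0.24, with 11 of 26 lower and 1 higher without overlap. It was -0.07 without sample 983 and -0.76 without 985, or -0.73 with listed genes that entered only the fit without 985. Parp14 (-2.08 ± 0.35), Usp18 (-1.81 ± 0.44), Zbp1 and Oas2 lay lowest, whereas the classical members Mx1, Ifit3, Irf7 and Isg20 had changes between -0.17 and 0.51. Genes of MHC class I loading and the immunoproteasome had a median of -0.08 (0.05 without 983 and -0.39 without 985). Their lowest was the peptide transporter Tap1 (-1.11 ± 0.43), and B2m, the class I light chain, had 7.40 and 7.69 with stem cells, compared with 7.62 and 7.74 without.

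Of 23 measured chemokine genes 13 lay lower and 1 higher without overlap, and the median was -1.29. Cxcl11, a ligand of CXCR3, had -2.98 and -2.64 with stem cells, compared with 1.99 and 0.76 without. The monocyte attractants were Ccl7, with -0.53 and -0.20 with stem cells, compared with 3.28 and 2.94 without, and Ccl12, with -3.12 and -2.44 with stem cells, compared with 0.40 and 0.07 without. For both, the samples of a group lay within 1 log2 unit of each other. Ccl2, Cxcl9 and Cxcl10 lay at -2.48 ± 0.37, -2.75 ± 0.57 and -2.73 ± 0.50. The T cell chemokine gene Ccl5, by contrast, had 7.92 and 7.73 with stem cells, compared with 7.01 and 7.80 without, and the neutrophil attractant Cxcl2 and the T cell attractants Ccl17 and Ccl22 overlapped too. Ccl6 was the 1 chemokine gene higher without overlap, at 0.99 ± 0.35. Chemokine receptors went both ways, with a median of -0.08, or 0.33 without sample 985. With stem cells Ccr1 was lower by at least 2.65-fold, where it was not well above background, but had a change of 0.31 with normexp. Ccr3, the eotaxin receptor of eosinophils and basophils, had 0.88 and 1.51 with stem cells, compared with -0.86 and -0.81 without (2.03 ± 0.38), and Cx3cr1 lay at 1.85 ± 0.70, or 0.79 without sample 983 and 2.90 without 985.

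Among inflammatory cytokines shared with myeloid cells, Il6 had -0.33 and 0.52 with stem cells, compared with 2.90 and 3.13 without (-2.92 ± 0.42, adjusted p = 0.114). Clec4e, a receptor for dying cells and mycobacterial lipid, and Tnf followed at -1.96 ± 0.50 and -1.86 ± 0.49, and the antagonist gene Il1rn at -1.59 ± 0.40. Il1b could not be placed, since its samples without stem cells stood at 1.72 and 4.86 and enclosed the 2.36 and 2.53 of the treated ones. Il12b and Il12a lay at 0.95 ± 0.67 and -0.52 ± 0.37. Il12b overlapped between the groups. Of 16 measured genes 8 lay lower and 2 higher without overlap, with a median of -0.75 (-0.43 without sample 989). The NF-kB list, with 11 of 19 lower and 1 higher, had the same median of -0.75 (-0.44 without sample 985). It was led by the feedback gene Tnip3 (-2.55 ± 0.39) and the death inhibitor gene Cflar (-2.27 ± 0.46). Of 6 Cflar probes 5 lay lower, and their changes ranged from -2.27 to 0.12. Icam1 had 3.59 and 4.45 with stem cells, compared with 5.36 and 5.94 without, whereas the inhibitor gene Nfkbia had 7.64 and 7.69, against 7.51 and 7.65. The STAT, IRF and SOCS list had 14 of 21 lower and 1 higher, with a median of -0.51. Cish and Stat3 lay at -1.82 ± 0.55 and -1.45 ± 0.38. Death genes were mixed, with 9 of 20 lower, 4 higher and a median of -0.72 (-0.41 without sample 987). The pro-apoptotic gene Bcl2l11 (BIM) had 0.72 and 0.89 with stem cells, compared with 2.39 and 3.60 without. Its 3 probes changed by -2.19 to -0.04. Fas lay at -1.83 ± 0.49, while Fasl, its ligand, had 0.61 and 0.50, against 1.27 and 1.84.

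The list of ribosome biogenesis and nucleolar genes was, of the 32 lists, the one in which no member overlapped between the groups. Since the lists were chosen with earlier results of these data known, the counts below describe this list and do not test it. Activated lymphocytes enlarge their nucleoli before they divide, and MYC is known to drive many of these genes. All 20 measured genes lay lower with stem cells without overlap, against 24.9% of all genes, 18 were lower at an unadjusted p under 0.05, against 9.88%, and the median change was -1.81. Srm had 1.21 and 1.85 with stem cells, compared with 5.39 and 4.09 without (-3.21 ± 0.53, adjusted p = 0.127). It encodes the enzyme that makes spermidine and is a member of the list without being a nucleolar protein. Polr1b, the second subunit of RNA polymerase I, had -0.09 and 0.30 with stem cells, compared with 2.96 and 2.20 without. Nop16 had -0.22 and 0.81 with stem cells, compared with 2.86 and 2.47 without. Both stem cell samples lay below both others for these genes, although none passed the adjusted threshold. The nucleolar proteins nucleolin, Ncl, and nucleophosmin, Npm1, had changes of -1.92 ± 0.43 and -1.44 ± 0.49, and the smallest change was that of Wdr43 (-0.90 ± 0.47, or -0.31 without sample 983). Against the single samples, the median difference was between -2.29 and -1.25 in the 4 possible pairs, and sample 983 exceeded 985 by a median of 0.89. Without 985 the median was -2.14 and without 983 it was -1.41. With the 16-array estimate 18 of the 20 passed, against 8.19% of all genes.

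**Figure D2:**
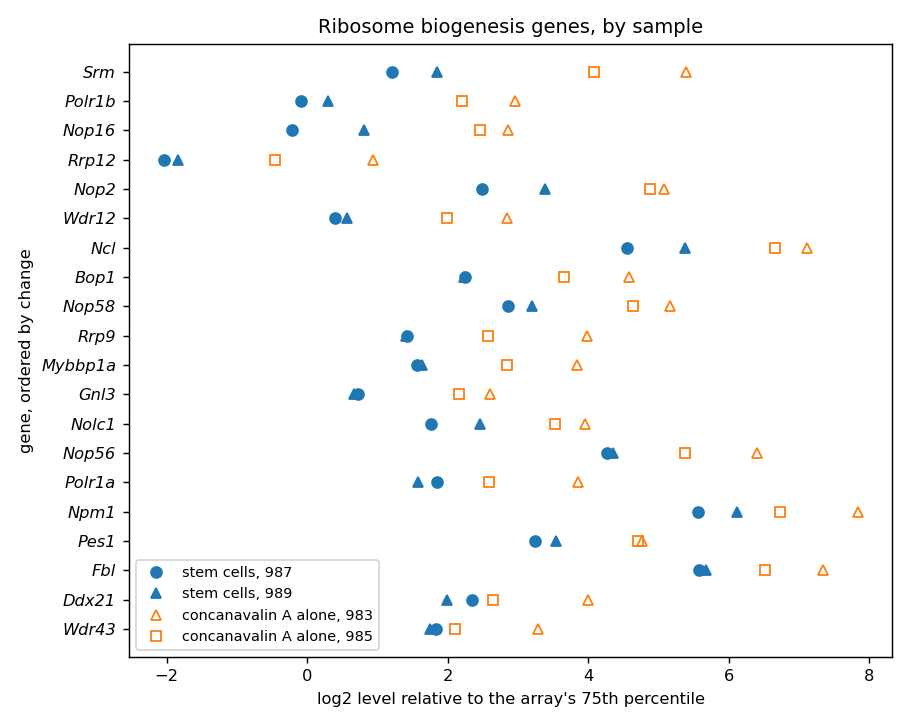
Log2 level (horizontal axis, relative to the array's 75th percentile) of the 20 measured ribosome biogenesis genes in each sample, ordered by their change, with stem cells as filled and concanavalin A alone as open symbols. Both filled symbols lie left of both open symbols for each gene.

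Other growth programmes moved less. For glycolysis and nutrient uptake the median was -0.68, with 10 of 20 genes lower and 1 higher without overlap. That median was -0.28 without sample 983 and -1.16 without 985. Slc7a5, a carrier of large amino acids, had -1.16 and -1.10 with stem cells, compared with 1.98 and 0.48 without. The serine pathway enzyme gene Shmt2 and the hexokinase gene Hk2 lay at -2.05 ± 0.68 and -1.95 ± 0.68 (-3.07 and -2.89 without sample 985), and Ldha, lactate dehydrogenase, at -1.51 ± 0.42. The housekeeping members Aldoa and Gapdh overlapped. Proteasome subunits had a median of -0.52, with 12 of 18 lower and 0 higher, led by Psma5 (-1.24 ± 0.49), and heat shock and unfolded protein genes one of -0.74. In that last list sample 983 exceeded 985 by a median of 1.30, and 16 of 23 genes overlapped. Its median was -0.38 without sample 987, -0.19 without 983 and -1.11 without 985. Its lowest member was the mitochondrial chaperonin gene Hspd1, at 3.46 and 3.92 with stem cells, compared with 6.84 and 5.14 without. The subunits of oxidative phosphorylation had a median of -0.13, between -0.32 and -0.04 with 1 sample left out, and 14 of 20 overlapped. Cycs, cytochrome c, was their lowest at -1.23 ± 0.46. Of 22 cell cycle genes 7 lay lower and 2 higher without overlap, with a median of -0.23. That median changed sign to 0.01 without sample 983, and was -0.10 without 987 and -0.44 without 985. Ccnd2, a cyclin of cell cycle entry, had 3.04 and 3.69 with stem cells, compared with 7.20 and 5.34 without. The proliferation marker Mki67 overlapped.

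**Figure D3:**
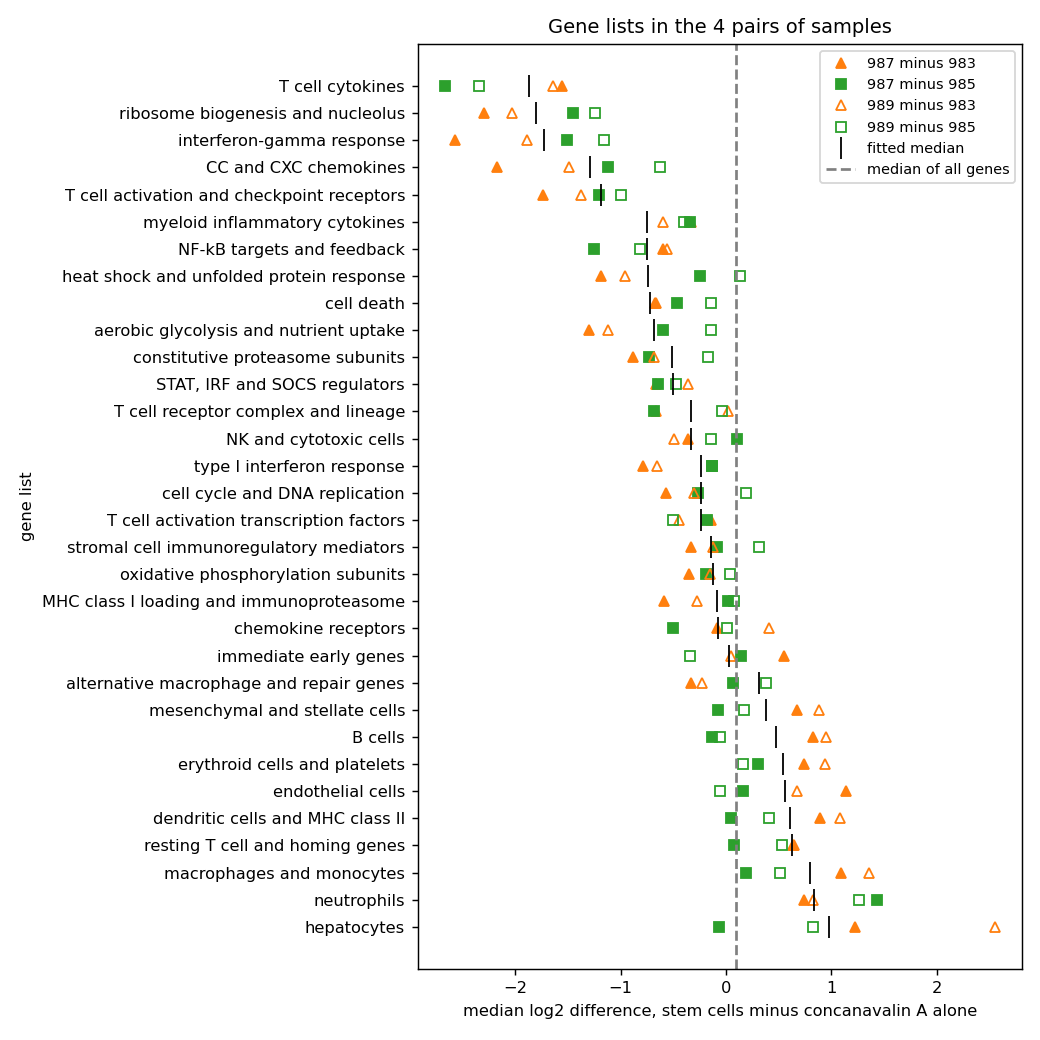
Median log2 difference (horizontal axis) of each of the 32 gene lists for the 4 pairs of a stem cell sample minus a sample given concanavalin A alone, with pairs against 985 as squares, pairs against 983 as triangles and the fitted median as a vertical tick. Lists are ordered by the fitted median, and the dashed line marks the median of all genes, 0.09.

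Markers of several other leukocytes lay higher with stem cells. Neutrophil genes had a median of 0.83, with 9 of 16 higher and 1 lower without overlap and 7 higher at an unadjusted p under 0.05. The gelatinase gene Mmp9 had 1.05 and 1.52 with stem cells, compared with -1.33 and -1.41 without (2.66 ± 0.36, adjusted p = 0.113). S100a8, a subunit of calprotectin, had 6.45 and 6.74 with stem cells, compared with 4.91 and 4.32 without, and Retnlg had 6.44 and 6.49, against 4.76 and 3.94. The summed level of the 17 neutrophil markers was 664 and 703 with stem cells, compared with 295 and 182 without. The groups lay apart. Genes of early granule formation, Mpo and Elane, overlapped.

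Markers of macrophages had a median of 0.80, with 10 of 19 higher and 4 lower without overlap. The median was 0.37 without sample 983 and 1.16 without 985. Marco, a scavenger receptor, had 5.27 and 4.61 with stem cells, compared with 2.58 and 2.55 without. Adgre1 (F4/80) had 3.91 and 3.55 with stem cells, compared with 1.85 and 2.34 without. The Kupffer cell genes Clec4f and Cd5l lay at 1.52 ± 0.56 and 1.59 ± 0.56, but here sample 985 (3.53 and 4.82) stood close to the treated samples and 983 (2.04 and 3.30) apart. The summed macrophage level was 541 and 591 with stem cells, compared with 224 and 525 without. The scavenger receptor gene Msr1 and the lipopolysaccharide co-receptor gene Cd14 lay lower, at -1.34 ± 0.34 and -1.08 ± 0.42. Repair and alternative activation genes had a median of 0.31 (-0.14 without sample 985) and were mixed, with Spp1, osteopontin, at -1.16 ± 0.45 and Klf4, a transcription factor, at 1.40 ± 0.39.

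For dendritic cells and class II presentation the median was 0.61, with 10 of 20 higher and 2 lower, and was 0.17 without sample 983 and 1.03 without 985. Clec9a, of the cross-presenting type, had -1.75 and -1.37 with stem cells, compared with -3.92 and -2.95 without, and Flt3 lay at 1.54 ± 0.54. Costimulatory genes of the list were split. Cd40 had 0.18 and 0.59 with stem cells, compared with 2.83 and 2.34 without, and Cd86 had 0.21 and 0.36, against 0.48 and 1.47. Cd80, which binds the same receptors as Cd86, lay narrowly higher, at -0.36 and -0.24 with stem cells, compared with -1.34 and -0.36 without. The summed level of this list was 1224 and 1295 with stem cells, compared with 572 and 1159 without. B cell markers had a median of 0.48 (-0.09 without sample 983), with 5 of 15 higher and 2 lower. Of all genes 27.7% lay higher without overlap, so the B cell count was near that share. At an unadjusted p under 0.05, 1 of the 15 was higher, against 8.09% of all genes. Cd79a, a chain of the B cell receptor, had 1.82 in both samples with stem cells, compared with -1.04 and 1.34 without, so that its change of 1.67 ± 0.75 was 0.48 without 983 and 2.86 without 985. The complement receptor gene Cr2 lay at -2.44 ± 0.35. The summed level of the B cell markers, 368 and 388 with stem cells, compared with 196 and 408 without, overlapped. NK and cytotoxic genes had a median of -0.33 (-0.04 without 983). The granzyme gene Gzmb had 3.24 and 3.97 with stem cells, compared with 6.40 and 5.05 without, and the chemokine gene Xcl1 lay at -1.87 ± 0.45, whereas Prf1, perforin, lay at -0.33 ± 0.35 and the receptor gene Klrd1 at 0.68 ± 0.34. The summed level of the 15 such markers with a value on each array overlapped, at 366 and 334 with stem cells, compared with 356 and 383 without.

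The lists of non-leukocyte markers had medians above that of all genes. The hepatocyte list had a median of 0.97, with 8 of 18 higher and 0 lower, yet the difference between samples 983 and 985 had a median of -1.62 and exceeded it. Its median was 0.42 without sample 989, 0.32 without 983, 1.58 without 987 and 1.70 without 985. Alb had 6.59 and 7.92 with stem cells, compared with 5.32 and 7.11 without, and Cps1, an enzyme of the urea cycle, lay at 2.81 ± 0.74. Endothelial, mesenchymal and erythroid lists had medians of 0.56, 0.38 and 0.54, but only 5 of 18, 4 of 15 and 0 of 10 genes lay higher without overlap, against 27.7% of all genes, and 1, 0 and 0 were higher at an unadjusted p under 0.05. Without sample 983 these medians were -0.04, -0.04 and 0.33. Pecam1 had 0.70 and 0.27 with stem cells, compared with -0.42 and -0.55 without, and Gpr182, a receptor of sinusoidal endothelium, had 0.79 and 1.43 with stem cells, compared with -3.38 and 0.35 without. Sample 983 stood apart there, and the change of 2.62 ± 1.13 was 0.76 without it and 4.49 without 985. The nucleotidase gene Nt5e (CD73), also a stromal cell marker, lay at 0.68 ± 0.37. For 4 of the marker lists that lay higher, those of B cells, endothelium, mesenchyme and hepatocytes, at least 1 pair of samples had a median below 0. The part of these shifts in makeup in the lower levels of the T cell, interferon and ribosome genes was not tested. Of mediators by which stromal cells are known to regulate immune cells, 5 of 18 lay higher and 4 lower, with a median of -0.15 (0.10 without sample 983). Igf1 was at 1.27 ± 0.58, or 0.48 without 983, and Tgfb2, not well above background without stem cells, at least 2.07-fold higher, while Ptgs2, Hgf and Ido1 overlapped.

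**Figure D4:**
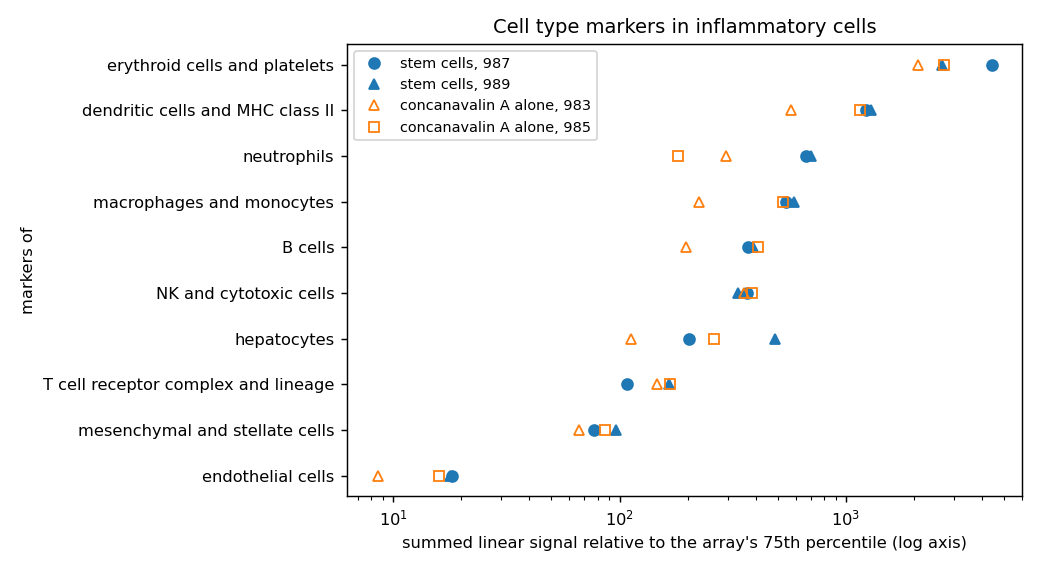
Summed linear signal of the markers of 10 cell types that had a value on each array (horizontal log axis, relative to the array's 75th percentile) in each sample of hepatic inflammatory cells, with stem cells as filled and concanavalin A alone as open symbols. The sums of the neutrophil markers are 664 and 703 with stem cells and 295 and 182 without, and sample 983 has the lowest sum for 7 of the 10 cell types.

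Beyond the lists, the 15 genes with the smallest p on the lower side changed by 3.20 to 7.07 log2 units, with adjusted p from 0.0201 to 0.0793, and 6 of them were not well above background in either stem cell sample. Rag1, a recombinase of developing lymphocytes, was lower by at least 6.62-fold, in 3 of 3 probes. Batf2, an interferon-inducible AP-1 factor, had -0.46 and -0.34 with stem cells, compared with 4.00 and 3.35 without. Tfec, a factor of myeloid cells, had -3.52 and -3.07 with stem cells, compared with 0.50 and 0.01 without. The kinase gene Sphk1, which makes sphingosine 1-phosphate, had -2.79 and -2.15 with stem cells, compared with 2.10 and 1.13 without, and the tissue factor gene F3 had -4.92 and -4.38, against -1.54 and -1.36. These genes were picked for no overlap and a small p, and their gaps were over 2 log2 units. The methyltransferase gene Eef1aknmt lay at -3.77 ± 0.40. E330037G11Rik, Zfp948, Olfr894 and Trmt61b were at least 10.2-fold, 9.44-fold, 3.59-fold and 3.49-fold lower, all without a signal well above background in the stem cell samples. With normexp the changes of Olfr894 and Trmt61b had the other sign, at 0.08 and 0.21.

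On the higher side, the 15 genes changed by 2.31 to 3.75 log2 units with adjusted p from 0.0711 to 0.124, and 9 of them were not well above background in either sample without stem cells. Among those, Ucp1, the uncoupling protein of brown fat, was at least 2.80-fold higher, the esterase gene Bche at least 2.71-fold, Tmed6 at least 3.39-fold, 8430419K02Rik at least 2.81-fold, P3h4 at least 2.50-fold, 2900069M18Rik at least 2.07-fold, Mbd5 at least 2.00-fold, 4833415N18Rik at least 1.56-fold and Ppm1n at least 1.34-fold. These are small bounds on dim probes. Brighter genes were G0s2, an inhibitor of fat breakdown, with 0.59 and 0.61 with stem cells, compared with -1.81 and -1.79 without, Apol8, with -0.01 and 0.27 against -3.30 and -2.32, and Chil1, a chitinase-like protein, with -0.45 and -0.37 against -2.53 and -2.92. Impg2 and Adam30 lay at 3.00 ± 0.38 and 3.38 ± 0.39.

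The stem cell effect in the inflammatory cells was then set against that in whole livers of the same schedule, as a difference of both effects in 1 fit of the 16 arrays. The cells lay on a slide of their own, so slide and tissue cannot be told apart. In the livers 7 of 16295 genes passed (0.0430%). The difference passed for 367 genes (2.25%), 286 with a lower effect in the cells (1.76%) and 81 with a higher one (0.497%). This count was 83 without sample 987 and 2379 without sample 985. With normexp background correction it was 0.

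Il3 had the smallest p (-7.56 ± 0.49, adjusted p = 2.39e-05; -5.29 with dim signals raised to the array's floor). In livers Il3 was not well above background, at -5.82, -5.20 and -5.52 with stem cells, compared with -6.76, -5.71 and -5.55 without. Among the T cell genes the difference also passed for Il21, Il17a, Il2ra and Icos. Icos, a costimulatory receptor, had -0.14, -0.24 and -1.05 in livers with stem cells, compared with -0.84, -1.33 and -1.30 without, so that the effect was upward in livers (0.68 ± 0.24) and downward in cells (-1.41), a difference of -2.10 ± 0.39. The NF-kB feedback gene Tnip3 had the same opposition, at 1.90 ± 0.65 in livers, with a difference of -4.45 ± 1.02. Irgm2 had 6.01, 5.46 and 6.00 in livers with stem cells, compared with 6.07, 6.38 and 6.28 without, a difference of -3.50 ± 0.78 (adjusted p = 0.0376). Of the chemokine receptors Ccr1 passed (-3.23 ± 0.53, or -1.70 with the floor), and of the cell cycle genes Ccnd2 (-2.83 ± 0.67) and Pcna (-1.06 ± 0.24). The difference passed for 2 of 16 activation receptors, 1 of 16 chemokine receptors and 2 of 22 cell cycle genes, all lower in the cells. Over all genes 1.76% passed on that side.

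For the ribosome biogenesis list the difference passed for 6 of 20 genes, all lower in the cells, against 1.76% of all genes. They were Srm (-2.59 ± 0.56), Polr1b (-2.25 ± 0.40), Nop16 (-2.20 ± 0.35), Wdr12 (-2.00 ± 0.31), Ncl (-1.75 ± 0.40) and Pes1 (-1.23 ± 0.26). The median change of the list was -1.81 in the cells and -0.17 in the livers. Wdr12, a factor of large subunit assembly, had 1.65, 1.47 and 1.53 in livers with stem cells, compared with 1.61, 1.30 and 1.56 without. The livers overlapped there, where Wdr12 in the cells had 0.40 and 0.56 with stem cells, compared with 2.85 and 2.00 without. The T cell cytokines had a median of 0.04 in livers against -1.86 in the cells, and the interferon-gamma list -0.42 against -1.72. The difference passed for 3 of 19 T cell cytokines, 1 of 31 interferon-gamma genes and 0 of 23 chemokine genes, against 1.76% of all genes. However, 16 T cell receptor and lineage markers had a mean level of -2.39 to -1.87 in the livers, against 1.14 to 1.83 in the cells. T cell genes were thus mostly dimmer in whole liver, and whether a change in T cells could show there was not tested. No gene of the neutrophil, macrophage or dendritic lists passed in this difference. Over all genes 1.76% passed with a lower and 0.497% with a higher effect in the cells, and at those shares lists of this size can hold none. The medians of these 3 lists in livers were 0.41, 0.38 and 0.21, on the same side as the 0.83, 0.80 and 0.61 in the cells. The B cell and endothelial lists had 0.42 and 0.45 in livers, against 0.48 and 0.61 in the cells in this fit. Higher levels of these markers were thus not particular to the cells.

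By p alone, the 10 genes with the smallest p and a lower effect in the cells were Il3, Rag1, Eef1aknmt, Rbm12, Trmt61b, Timm8a1, Fitm2, Olfr894, Selenoi and Rnmt. Rbm12, an RNA-binding protein, had -1.97 and -1.78 in cells with stem cells, compared with 0.85 and 1.03 without, and the difference from the livers was -2.44 ± 0.24. Timm8a1, a mitochondrial import chaperone, had 0.67 and 1.05 in cells with stem cells, compared with 3.47 and 3.02 without (difference -2.63 ± 0.27). Fitm2, a protein of lipid droplet formation, Selenoi, of phospholipid synthesis, and Rnmt, the mRNA cap methyltransferase, differed by -2.52 ± 0.27, -2.42 ± 0.28 and -1.98 ± 0.25. Trmt61b, a tRNA methyltransferase, and Eef1aknmt differed by -2.84 ± 0.27 (-1.28 with the floor) and -3.66 ± 0.34. Rag1 and Olfr894 were not well above background in livers, and their differences of -4.77 ± 0.44 and -4.22 ± 0.45 became -3.02 and -2.14 with the floor.

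With a higher effect in the cells, the genes with the smallest p included Mtmr11, Pde4dip, Bche, Ucp1, 4732465J04Rik, Agap1, Zmynd15, Nnmt and Ttc39a. Nnmt, which methylates nicotinamide and is abundant in liver, had 0.10 and -0.07 in cells with stem cells, compared with -1.49 and -1.31 without, and 6.01, 5.73 and 6.06 in livers with stem cells, compared with 6.33, 6.53 and 6.37 without. The effects on Nnmt had opposite signs, with a difference of 1.89 ± 0.30. Zmynd15, Agap1 and 4732465J04Rik differed by 1.80 ± 0.29, 1.99 ± 0.30 and 2.66 ± 0.40. Ttc39a differed by 4.08 ± 0.69 (3.48 with the floor). For Bche, Ucp1, Mtmr11 and Pde4dip at least 1 group of cells was not well above background, and their differences of 2.93 ± 0.38, 3.38 ± 0.46, 2.69 ± 0.31 and 2.15 ± 0.25 became 0.97, 1.19, 0.98 and 1.96 with the floor. The probe of Pde4dip in this fit differs from its brightest probe in the cells, which lay at -0.67 ± 0.40, and the difference was -0.40 among probes well above background on every array.

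**Figure D5:**
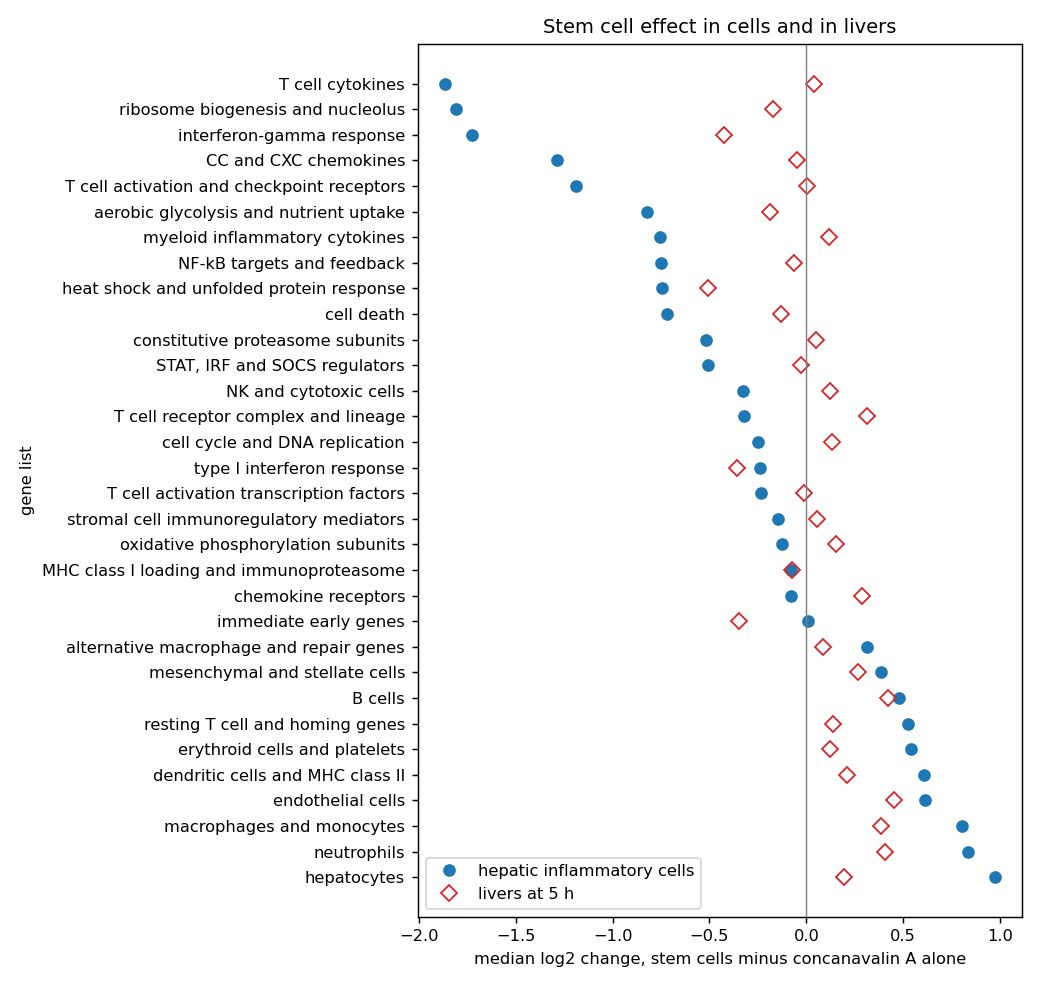
Median log2 change with stem cells of each gene list (horizontal axis) in hepatic inflammatory cells (filled circles, 2 against 2 samples) and in livers at 5 h (open diamonds, 3 against 3 mice), from 1 fit of 16 arrays, with lists ordered by the value in the cells. Ribosome biogenesis lies at -1.81 in cells and -0.17 in livers.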

How the data were processed

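Gene expression was measured on 1-colour Agilent mouse arrays, 1 per sample. The authors deposited scanner output holding background-subtracted signal intensities. Per the file headers, version 10.5.1.1 of Agilent's Feature Extraction wrote them. The deposited value table held identical intensities. From these intensities, spots flagged as outliers and control spots were left out, log2 signals were set relative to the 75th percentile of each array, and spots of a probe were averaged. Probes well above background on at least 2 arrays of a fit were kept, and the brightest stood for a gene. Probes were named by accession, or otherwise by symbol, and 6300 of 41174 had no symbol. Groups were compared with limma 3.58.1 in R 4.3.3 and Benjamini-Hochberg adjustment over all genes, at 0.05. The number of arrays limits the precision. The fit was checked on simulated data with 1 spread per gene for all groups. In the samples themselves the group without stem cells was less uniform, so that check does not cover this.

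A fold written as "at least" sets a probe that was not well above background in either array of 1 group at the lowest signal well above background on each array, or at its own signal if higher. Named genes were those past the threshold, the 15 with the smallest p in each direction without overlap, and a fixed panel. Added to these were up to 10 genes in each direction of the difference from the liver. Of each of 32 lists, up to 4 members with the largest change among members without overlap were named. Other genes, such as Ptprc and Cd3d, were chosen after their values were seen. The samples and lists were chosen with earlier results of these data known. Alternatives covered the normalization, background correction, filter, probe summary, spread and each sample in turn. Values of some genes that these rules name are not reported here.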

Additional observations from a re-analysis of the deposited data

Results flagged for a closer look

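For the genes below, the effect of stem cells differed between inflammatory cells and livers at 5 h by the test of the difference itself in the 16-array limma fit (adjusted p under 0.05), given as the log2 effect in cells minus that in livers. Among immune and cell cycle genes the effect was lower in the cells for Il3 (-7.56), Il2ra (-4.81), Tnip3 (-4.45), Il21 (-3.66), Irgm2 (-3.50), Il17a (-3.24), Ccr1 (-3.23), Ccnd2 (-2.83), Icos (-2.10) and Pcna (-1.06). In the ribosome biogenesis list it was lower for the spermidine enzyme gene Srm (-2.59) and for Polr1b (-2.25), Nop16 (-2.20), Wdr12 (-2.00), Ncl (-1.75) and Pes1 (-1.23). Other genes with a lower effect in the cells were Rag1 (-4.77), Olfr894 (-4.22), Eef1aknmt (-3.66), Trmt61b (-2.84), Timm8a1 (-2.63), Fitm2 (-2.52), Rbm12 (-2.44), Selenoi (-2.42) and Rnmt (-1.98). A higher effect in the cells was found for Zmynd15 (1.80), Nnmt (1.89), Agap1 (1.99), Pde4dip (2.15), 4732465J04Rik (2.66), Mtmr11 (2.69), Bche (2.93), Ucp1 (3.38) and Ttc39a (4.08). Tissue and slide cannot be told apart in these differences, and none passed with normexp background correction. Groups of 2 and 3 samples are too small to test a single sample as an outlier.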

How the results depend on the processing

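The count of 2 genes in the cells was 1 with quantile normalization, 4 with the stricter filter, 5 with a trend, 24 without a filter, 832 with normexp background correction and 2214 with all 16 arrays in the fit, and 0 to 2157 with 1 sample left out. The count of 367 for the difference from the liver was 587 with quantile normalization, 677 with the stricter filter, 243 with probe means, 216 without a filter, 141 with array weights, 0 with normexp, and 83 to 2379 with 1 sample left out. The causes were not tested. Changes in the cells had the other sign with quantile normalization for Irf4 (0.0026), Lck (0.12), Nfatc1 (0.14), Nr4a1 (-0.031), Tgfb1 (0.031) and Thy1 (0.10), with the percentile over detected probes for Lck (0.084), Nfatc1 (0.086), Tgfb1 (0.016) and Thy1 (0.062), and with normexp for Aldoa (-0.27), Ccr1 (0.31), Cd3d (-0.25), Elane (0.43), Ido1 (0.66), Ifit3 (-0.0036), Il22 (0.19), Junb (-0.040), Nfkbia (-0.18), Nr4a1 (-0.28), Olfr894 (0.081) and Trmt61b (0.21). Differences from the liver had the other sign with normexp for Ccr1 (0.012) and Trmt61b (0.38), and with the stricter filter for Pde4dip (-0.40). With 1 sample left out, the sign was not kept for B2m (-0.27 to 0.014), Gapdh (-0.65 to 0.28), Irf7 (-0.45 to 0.12), Lck (-0.24 to 0.17), Nfatc1 (-0.097 to 0.032), Nr4a1 (-0.36 to 0.38), Thy1 (-0.28 to 0.17), Aldoa (-0.11 to 0.12), Cd3d (-0.25 to 0.31), Cxcl2 (-0.59 to 0.080), Elane (-1.02 to 0.64), Foxp3 (-0.11 to 1.26), Mpo (-1.19 to 0.52), Col1a1 (-0.12 to 0.27), Hgf (-1.45 to 0.16), Ido1 (-0.71 to 0.33), Junb (-0.018 to 0.48), Mki67 (-0.60 to 0.13), Ptgs2 (-1.37 to 0.041), Il1b (-2.41 to 0.73), Ccl22 (-0.21 to 1.20), Vcam1 (-1.93 to 0.43) and Tgfb1 (-0.25 to 0.042). List medians moved by more than the spread between samples with quantile normalization for NK and cytotoxic cells (-0.16), myeloid inflammatory cytokines (-0.69) and cell death (-0.60), and with normexp for T cell cytokines (-0.66), CC and CXC chemokines (-0.85), chemokine receptors (0.24), myeloid inflammatory cytokines (-0.25), STAT, IRF and SOCS regulators (-0.71), stromal cell immunoregulatory mediators (0.099), cell death (-0.46), oxidative phosphorylation subunits (-0.38) and MHC class I loading and immunoproteasome (-0.32). With 1 sample left out they moved by more than that spread for T cell cytokines (-2.49 to -1.31), T cell activation and checkpoint receptors (-1.59 to -1.12), T cell receptor complex and lineage (-0.69 to 0.062), resting T cell and homing genes (0.29 to 0.79), NK and cytotoxic cells (-0.44 to -0.040), B cells (-0.095 to 0.89), dendritic cells and MHC class II (0.17 to 1.03), endothelial cells (-0.037 to 0.86), mesenchymal and stellate cells (-0.039 to 0.72), erythroid cells and platelets (0.33 to 0.95), interferon-gamma response (-2.28 to -1.36), type I interferon response (-0.73 to -0.067), CC and CXC chemokines (-1.72 to -0.87), chemokine receptors (-0.22 to 0.33), myeloid inflammatory cytokines (-0.86 to -0.43), NF-kB targets and feedback (-0.94 to -0.44), STAT, IRF and SOCS regulators (-0.73 to -0.44), stromal cell immunoregulatory mediators (-0.23 to 0.098), alternative macrophage and repair genes (-0.14 to 0.34), cell death (-0.72 to -0.41), aerobic glycolysis and nutrient uptake (-1.16 to -0.28), oxidative phosphorylation subunits (-0.32 to -0.041) and MHC class I loading and immunoproteasome (-0.39 to 0.051). No paired analysis was possible because the groups share no replicate numbers. Dim probes have only a bound on their fold.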
